A study of Homo sapiens with 15 samples.

Results

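Control HCC95 cells were described here as the baseline against which the rest of the series was set. HCC95 is an established cell line from a human lung squamous cell carcinoma (LUSC), and these cells carried siNC1, a negative control small interfering RNA that is not directed at any of the factors under study. They were chosen by their label alone, and they made up 3 of the 15 libraries. The labels name genomic DNA as the molecule, whereas their protocol describes libraries of polyadenylated RNA and the table holds counts per gene, so the values were read as RNA-seq. The other 12 libraries came from the same line after knockdown of TP63, SOX2, KLF5 or GRHL2 with siTP63b, siSOX2b, siKLF5b or siGRHL2a, in 3 libraries each. The labels call the cells human lung epithelial cells and give no time after transfection. Untransfected cells were not analysed here, so the control level includes whatever transfection does. Nothing in the labels says that the 3 libraries came from separate cultures, and the SD given below measures only the spread between these libraries, which may be technical.

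Squamous carcinomas of the lung resemble the basal layer of a stratified epithelium. Basal cells are anchored to the basement membrane by hemidesmosomes, build a keratin network of KRT5 with KRT14 or KRT15, and depend on the transcription factor p63, the product of TP63. When such cells mature they switch to other keratins and then to the proteins of the cornified envelope. SOX2 and TP63 lie on the long arm of chromosome 3, which is often gained in LUSC, and the NRF2 factor encoded by NFE2L2 drives genes against oxidative stress and is often active in this cancer.

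The control libraries held 23771793, 18947986 and 24845273 counts. A level is given either as CPM, the counts scaled to a common library total, or, wherever genes are compared with each other, as RPKM, which is CPM per 1000 bases of the canonical transcript. A gene counted as expressed at 1 CPM or more in each of the 3 libraries and at the floor with at most 3 counts in each. Such a count of 3 corresponds to 0.126, 0.158 and 0.121 CPM in replicates 1, 2 and 3, and these limits cover counting error only. The authors counted reads over the whole span of a gene, introns included, so reads from a gene that lies inside or across another can count for both, and RPKM of long genes includes intronic reads. Of the protein-coding genes, 32.6% had an overlapping gene with at least 50% as many counts, and an overlap of that size is stated beside each named gene whose level turns on it.

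Of 19337 protein-coding genes, 12865 (66.5%) were expressed, 2615 (13.5%) lay in between and 3857 (19.9%) were at the floor. Protein-coding genes took 84.8%, 84.6% and 84.6% of the counts in replicates 1, 2 and 3. Counts were spread over many genes, since the 10 genes of any type with most counts took 4.58% ± 0.0785 (SD, n = 3) of a library and the first 100 took 16.2% ± 0.17.

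The label of a squamous line was checked against KRT5, TP63, SOX2, NFE2L2 and CCND1. All 5 genes were expressed, beside 66.5% of all protein-coding genes, so passing this threshold alone says little about the label. KRT5 stood first of all protein-coding genes with 4020, 3580 and 3470 RPKM in the 3 libraries. NFE2L2 had 416 ± 12.5 RPKM (SD, n = 3; rank 89), CCND1, which encodes cyclin D1, had 263 ± 2.11 RPKM (rank 160) and TP63 had 132 ± 2.94 RPKM (rank 330). SOX2 was the lowest of the 5 on this scale, with 30.6, 25.6 and 27.6 RPKM and rank 2119, and its host transcript SOX2-OT, which spans it, had 114% as many counts. The libraries of these 5 genes did not overlap on this scale. KRT5 also ranked first when all exons or the whole counted span served as the length, whereas NFE2L2 moved to rank 355 with all exons merged (68.0 RPKM) and TP63, whose span is long, to rank 2585 with the counted span (2.45 RPKM). With the counted span SOX2, a gene without introns, had 27.9 RPKM (rank 229) and lay above NFE2L2 (6.17 RPKM, rank 1030) and TP63, so the order of these 3 genes turns with the length used.

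Most markers of other cell types were low or at the floor in the same libraries, while CD68, CSF1R and AGER lay above the median of 2.56 RPKM over all protein-coding genes. Beside 66.5% of all protein-coding genes, 0% of the airway, 37.5% of the alveolar and 12.5% of the neuroendocrine markers were expressed. The shares were 20% for leukocyte, 16.7% for endothelial and 25% for fibroblast markers. Of 8 airway secretory and ciliated markers none was expressed and 6 were at the floor, among them SCGB1A1 of club cells and FOXJ1 of ciliated cells, and their summed level was 0.883, 1.11 and 0.724 CPM. Of 8 alveolar and adenocarcinoma markers 3 were expressed, led by AGER with 3.13 ± 0.567 RPKM, while the surfactant genes SFTPC, SFTPA1 and SFTPA2 were at the floor. NKX2-1, the factor of the alveolar lineage, had 1.11 ± 0.11 RPKM and an overlapping gene with 201% as many counts. The summed level of the alveolar list was 9.84, 9.34 and 8.13 CPM. Of 8 neuroendocrine markers CHGB alone was expressed (1.03 ± 0.235 RPKM), and NEUROD1 and INSM1 were among the 5 at the floor, with a sum over the list of 4.42, 3.48 and 3.26 CPM. The leukocyte list had 2 of 10 members expressed, CD68 with 19.3 ± 0.726 RPKM and CSF1R with 14.6 ± 0.779 RPKM, crossed by genes with 998% and 99.6% as many counts. The list summed to 88.6, 87.5 and 91.8 CPM. PTPRC, which encodes the pan-leukocyte antigen CD45, had 0.0486 RPKM, and CD3D had 0 counts. Endothelial genes were expressed in 1 of 6 cases (VWF, 1.57 RPKM; sum 14.8, 15.2 and 14.4 CPM) and fibroblast genes in 2 of 8 (COL1A1, 0.382 RPKM, and PDGFRB, 0.376 RPKM; sum 6.02, 5.38 and 3.82 CPM), with DCN at 0 counts.

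Of the 20 genes with the highest RPKM, 14 encode ribosomal proteins, and the 87 ribosomal protein genes as a whole took 4.76%, 4.76% and 4.68% of the counts. RPL26 (3040 ± 101 RPKM), RPS24 (2850 ± 25.2) and RPL27 (2030 ± 29.8) led them, followed among others by RPLP0, RPL12, RPL19, RPL13A, RPL35, RPS3A, RPS18, RPL17, RPL6 and RPS4X between 1820 and 1280 RPKM. RPL26, RPS3A, RPL17 and RPS4X were each crossed by a gene with at least 50% as many counts. Beside KRT5 the remaining genes were NPM1, which encodes the nucleolar chaperone nucleophosmin (2270 ± 154 RPKM), CD44, the hyaluronan receptor (1860 ± 48), KRT19 (1820 ± 158), GAPDH of glycolysis (1800 ± 37.6) and the elongation factor gene EEF1A1 (1540 ± 24.4). The libraries of CD44 and RPLP0, of RPLP0 and KRT19, and of KRT19 and GAPDH overlapped, so the order of these neighbours is not set. These places depend on the length used, since NPM1 had rank 33 with all exons merged (360 RPKM) and rank 53 with the counted span (121 RPKM), and CD44 had rank 3 (1010 RPKM) and rank 66 (108 RPKM).

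**Figure D1:**
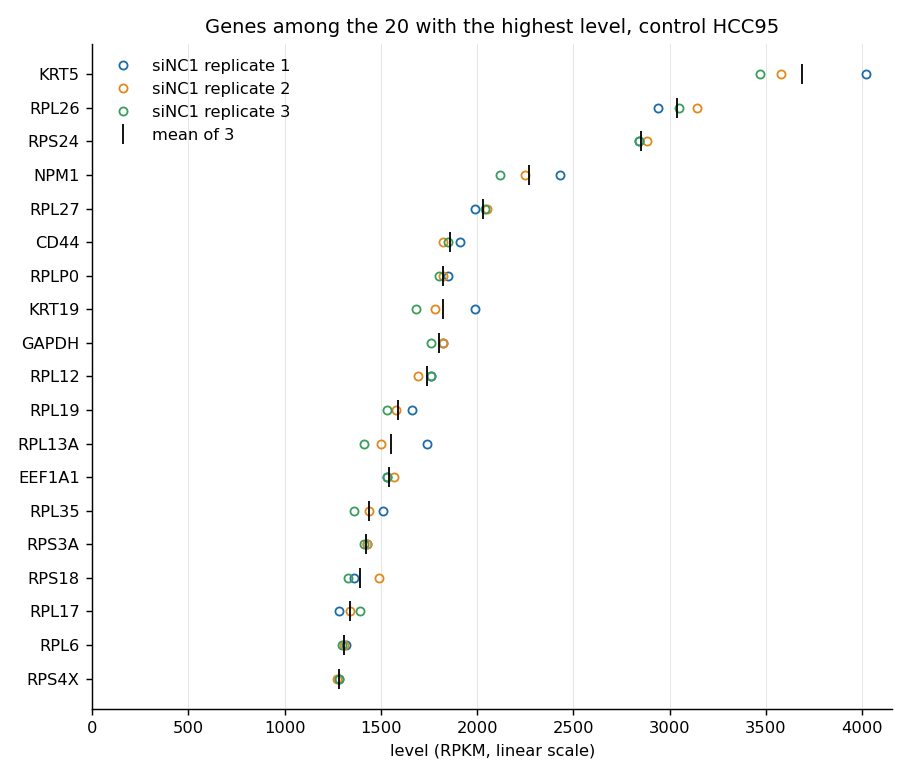
Level in RPKM (linear axis from 0) of protein-coding genes among the 20 with the highest mean in control HCC95 cells, with a circle for each of the 3 libraries and a bar for their mean. KRT5 lies above all others with 3470 to 4020 RPKM, and its lowest library is above the highest of RPL26 (3140 RPKM).

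By counts, which favour long transcripts, the order of the ranked protein-coding genes differed. CD44 came first with 246839, 187130 and 249178 counts, or 10100 ± 260 CPM, and KRT5 followed with 8260 ± 661 CPM. EEF1A1 (5410 CPM), NPM1 (2990 CPM), SCD, the desaturase of fatty acid synthesis (2920 CPM), KRT19 (2520 CPM), TRIM44 (2520 CPM), AKR1C1, an aldo-keto reductase (2490 CPM), NRG1, a ligand of ERBB3 and ERBB4 (2480 CPM), and GAPDH (2310 CPM) completed the first 10 of them.

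All 25 members of the squamous transcription factor list, which also holds the receptor NOTCH1, were expressed, beside 66.5% of all protein-coding genes. Their median was 7.72 RPKM against 2.56 RPKM. A level of 1 RPKM in each library was reached by 22 of the 25, beside 11396 of 19337 protein-coding genes. TP63 led with 133, 129 and 134 RPKM. OVOL2, a zinc finger factor that guards epithelial identity, followed with 120 ± 3.34 RPKM, but SNX5 across it had 194% as many counts. The 3 libraries of TP63 lay above those of OVOL2 and both lay above EHF, an ETS factor of epithelia, at 61.4 ± 3.51 RPKM. KLF5 had 34.8, 31.2 and 30.7 RPKM, SOX2 27.9 ± 2.52, FOXE1 27.1 ± 1.62, BNC1 25 ± 0.799 and GRHL2 24.7 ± 0.355 RPKM. Among the 4 factors knocked down elsewhere in the series, the order by RPKM of the canonical transcript was TP63, KLF5, SOX2 and GRHL2, whose libraries gave 24.3, 24.9 and 24.9 RPKM. The order was the same with all exons merged, whereas with the counted span SOX2 came first (27.9 RPKM), followed by KLF5 (4.78), TP63 (2.45) and GRHL2 (0.728 RPKM). The libraries of SOX2 overlapped those of FOXE1 and BNC1.

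A middle group of the list lay between 11.5 and 3.17 RPKM. It included GRHL3 (11.5 RPKM), RUNX1 (11), TFAP2C (9.96), PITX1 (7.72), TFAP2A (7.46), ELF3 (6.42), KLF4 (4.06), PAX9 (3.72) and the receptor NOTCH1 (3.17). GRHL1 (1.78 RPKM), TP73 (1.46), ZNF750 (0.996), OVOL1 (0.609) and MAF (0.536) were at the low end. ZNF750 and GRHL3 promote late keratinocyte maturation, and ZNF750 lay inside TBCD, which had 1760% as many counts. In all, 10 of the 25 genes were crossed by a gene with at least 50% as many counts, among them OVOL2, SOX2, BNC1, GRHL3, PITX1, ELF3, PAX9, TP73 and ZNF750. Factors of other lung lineages were expressed in 5 of 15 cases (33.3%, beside 66.5% of all protein-coding genes). Of these 15, 1 reached 1 RPKM in each library, beside 11396 of 19337 protein-coding genes. FOXA1 was highest at 3.76 ± 0.177 RPKM, and 7 factors, among them HNF4A, SPDEF, FOXJ1 and FOXI1, were at the floor.

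Keratin filaments form from pairs of a type II and a type I chain, and 9 of 26 type II (34.6%) and 9 of 28 type I genes (32.1%) were expressed, beside 66.5% of all protein-coding genes. Of the type II genes 10 lay in between and 7 were at the floor, and of the type I genes 8 lay in between and 11 were at the floor. KRT5 exceeded every other type II chain, followed by KRT8 of simple epithelia with 354, 339 and 324 RPKM, KRT6A with 30.9 ± 2.09 RPKM and KRT80 with 17.9 ± 0.999 RPKM. The remaining expressed type II genes were KRT6C (4.78 RPKM), KRT4 (2.58), KRT7 (0.941), KRT86 (0.9) and KRT6B (0.69).

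Among type I chains KRT19 stood first with 1990, 1780 and 1680 RPKM and KRT13, a keratin of non-cornified stratified epithelia, second with 1280, 1170 and 1090 RPKM. KRT17, a keratin of activated and basal-like cells, had 396 ± 21.4 RPKM, KRT18 196 ± 2.55 RPKM, and the basal keratin KRT15 147 ± 24.8 RPKM. KRT14, the usual partner of KRT5 in the basal layer, reached 34.2, 32.9 and 29.5 RPKM. The lowest library of KRT5 was thus far above the highest of KRT14, and KRT19, KRT13, KRT17, KRT18 and KRT15 all lay between them. KRT10 (4.36 RPKM), KRT40 (1.6) and KRT16 (1.43) were the other type I genes expressed. KRT1 of the suprabasal epidermis was not expressed at 0.0284 RPKM, and KRT2, KRT24, KRT31 and KRT73 were at the floor. KRT8 and KRT18 overlap, and KRT8 had 218% as many counts as KRT18. KRT80 and KRT10 were crossed by non-coding genes with 101% and 104% as many counts, KRT7 and KRT86 overlap, and KRT6A, KRT6B and KRT6C are near-identical copies whose reads may be divided among them or lost.

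**Figure D2:**
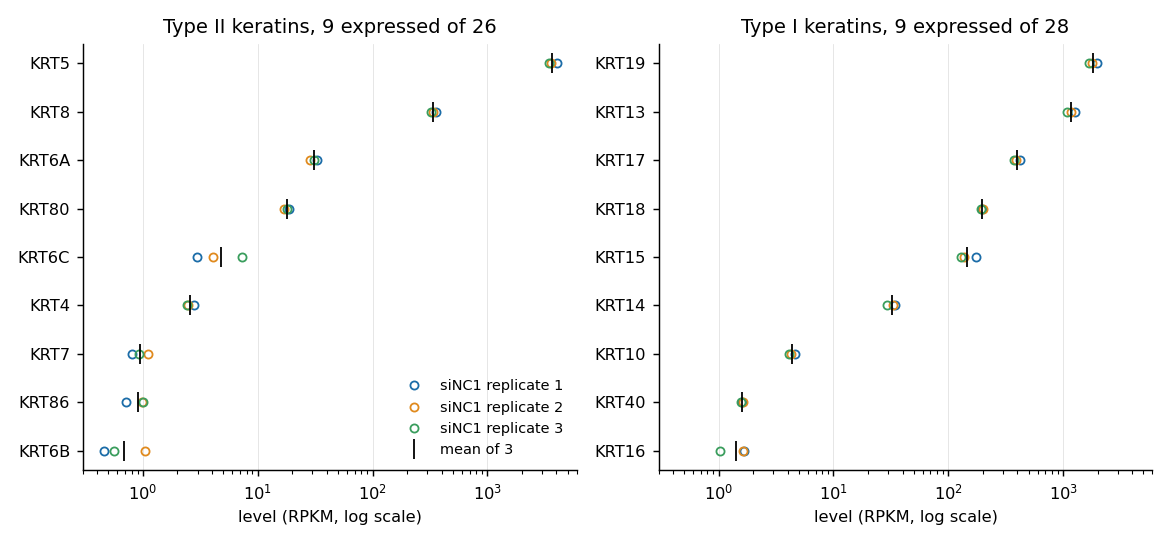
Level in RPKM (log axis) of the expressed type II keratins (left, 9 of 26) and type I keratins (right, 9 of 28), with a circle for each control library and a bar for the mean of 3. KRT5 and KRT19 lead the panels, KRT14 lies at 32.2 RPKM, and the 3 circles of KRT6C spread from 2.95 to 7.29 RPKM.

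Junction genes were nearly all expressed, 22 of 24 in the desmosome and hemidesmosome list (91.7%, beside 66.5% of all protein-coding genes), with a median of 21 RPKM against 2.56 RPKM. ITGA6, a subunit of the hemidesmosome integrin, was highest with 156, 155 and 159 RPKM, and a gene across it had 76.7% as many counts. The desmosomal cadherin DSG2 (66.4 ± 2.02 RPKM), the linkers DST (60.9 ± 2.29) and DSP (53.3 ± 2.97) and the p63 target PERP (49.4 ± 0.205) followed. DSC1 and DSG4, cadherins of the upper epidermis and hair, were at the floor, and the basal cadherins DSG3 and DSC3 had 19.8 and 35.9 RPKM.

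Late differentiation genes were mostly low. Of 35 members 10 were expressed (28.6%, beside 66.5% of all protein-coding genes), 15 lay in between and 10 were at the floor. Their median was 0.339 RPKM against 2.56 RPKM. A level of 1 RPKM in each library was reached by 6 of the 35, beside 11396 of 19337 protein-coding genes. CALML3, a calmodulin-like protein (21.3 ± 2.72 RPKM; its antisense gene had 118% as many counts), S100A9 (19.9 ± 2.57), the cystatin CSTA (19 ± 0.969), S100A8 (4.32 ± 0.428) and SPRR3 (1.79 ± 0.393) were highest. IVL, which encodes involucrin, had 0, 1 and 0 counts, LORICRIN had 2, 0 and 0 counts, and SBSN, CRNN and LCE3D were at the floor as well.

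Epithelial genes lay well above mesenchymal ones. Of 32 epithelial genes 31 were expressed with a median of 20.1 RPKM, and of 32 mesenchymal genes 21 were expressed (65.6%, close to the 66.5% of all protein-coding genes), 6 lay in between and 5 were at the floor, with a median of 1.06 RPKM against 2.56 RPKM over all protein-coding genes. The difference of the list medians of log2(RPKM + 0.1) was 4.17, 3.99 and 4.24 in replicates 1, 2 and 3 (mean 4.13, SD 0.129). EPCAM (262 ± 6.55 RPKM), SFN, the stratifin gene (230 ± 24.3), the protease inhibitor SPINT2 (105 ± 8.89, crossed by a gene with 93.8% as many counts) and the tight junction gene CLDN1 (90.3 ± 3.05) were among the highest of the epithelial list. CDH1, the gene of E-cadherin, had 39.9, 39.9 and 40.6 RPKM, and CLDN3 was the member that was not expressed.

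The mesenchymal list was not uniformly low. SNAI2, a repressor of the Snail family that basal cells also use, had 64.6, 64.1 and 62.8 RPKM and exceeded CDH1 in every library. CDH2, the gene of N-cadherin, had 17.3, 18 and 17.1 RPKM, below CDH1 in every library, and SPARC (14.4 ± 0.331 RPKM), MMP2 (13.6 ± 1.29) and THY1 (10.4 ± 0.978, crossed by a gene with 115% as many counts) followed. In contrast VIM, which encodes vimentin, had 49, 45 and 48 counts, or 0.985 ± 0.106 RPKM, and its antisense gene had 233% as many counts. ZEB1 had 0.667 ± 0.0392 RPKM beside an antisense gene with 105% as many counts, ZEB2 had 2 counts in each library, and DCN had 0.

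**Figure D3:**
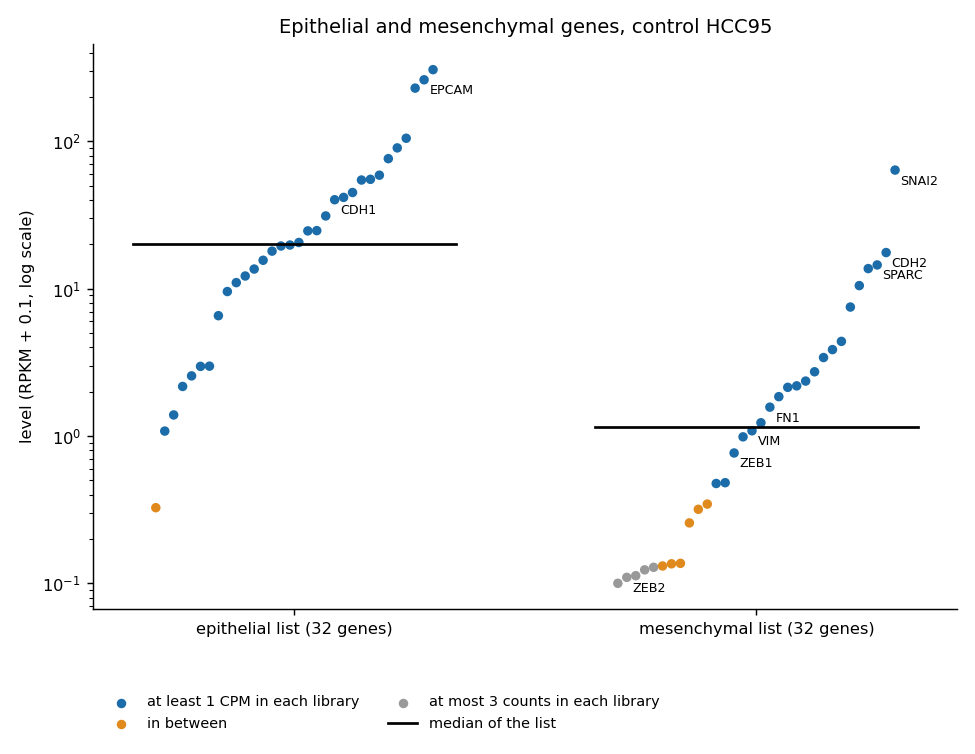
Mean level over 3 control libraries (RPKM + 0.1, log axis) of each gene in the epithelial and mesenchymal lists of 32 genes, ordered by level, with the list median as a line and colors for genes expressed, in between and at the floor. The medians lie at 20.1 and 1.06 RPKM, SNAI2 stands apart at the top of the mesenchymal list, and ZEB2 is at the floor.

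Among long non-coding RNA genes with little overlap, MIR205HG had 454, 428 and 424 CPM and NEAT1 had 420, 462 and 421 CPM, and their libraries overlapped. It hosts miR-205, a microRNA of basal epithelia known to target ZEB1 and ZEB2. The mature strand is shown because its host was among the most abundant of these RNAs, with the seed, bases 2 to 8, in capitals (RefSeq, GRCh38.p14, chr1:209432166-209432187, plus strand).
hsa-miR-205-5p: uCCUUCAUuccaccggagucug
Libraries of polyadenylated RNA do not measure the mature microRNA, and its relation to the ZEB1 and ZEB2 levels was not tested.

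Oncogenes were expressed in 38 of 39 cases (97.4%, beside 66.5% of all protein-coding genes), with a median of 16.1 RPKM against 2.56 RPKM. NFE2L2 and CCND1 were followed by EGFR, the epidermal growth factor receptor, with 136, 138 and 143 RPKM, by TP63 and by ECT2, a guanine nucleotide exchange factor gene on the long arm of chromosome 3 (127 ± 1.56 RPKM). EGFR lay above TP63 and TP63 above ECT2, with libraries of EGFR and TP63 that did not overlap. MYC had 33.2 ± 1.83 RPKM and MYCN was not expressed, at 0.0385 RPKM. FGFR1, a gene often amplified in LUSC, had 8.43 ± 0.364 RPKM, and PIK3CA 18.3 ± 0.387 RPKM. FGFR1, PIK3CA, MET and MYC were named after their values were seen.

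Tumor suppressor genes were expressed in 37 of 40 cases (92.5%, beside 66.5% of all protein-coding genes), with a median of 7.7 RPKM against 2.56 RPKM. FAT1, a giant cadherin (99.7 ± 2.56 RPKM), the cell cycle inhibitor CDKN1B (43.9 ± 2.75), NF1 (36 ± 1.02), BRCA1 (34.9 ± 0.895) and RB1 (34 ± 0.247) were highest. CDKN1A, a further cell cycle inhibitor, had 4.95 ± 0.553 RPKM. CDKN2A, which encodes p16 and ARF, and CDKN2B, which encodes p15, were at the floor with 0 counts in each of the 3 libraries.

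The absence of counts extended beyond these genes. On chromosome 9 (hg38), CDKN2A (21967752 to 21995301, minus strand), CDKN2B (22002903 to 22009305), the antisense gene CDKN2B-AS1, which spans 133965 bases, and DMRTA1 all had 0 counts in the control libraries, and they had 1, 1, 2 and 1 counts over all 15 libraries. MTAP, on one side, had 1862, 1452 and 2151 counts (13.3 ± 0.882 RPKM), and CAAP1, the first protein-coding gene above the floor on the other, had 7.09 ± 0.449 RPKM. Of 5103 genes in the table that span at least 100 kb, 57 (1.12%) had 0 counts in all 3 libraries. The stretch of 11 listed genes without a count was 23rd by counted bases among such stretches in the genome, and the 5 longest held no protein-coding gene. DNA copy number and methylation were not measured in these libraries.

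Receptors were expressed in 50 of 58 cases with a median of 5.68 RPKM, and growth factors and cytokines in 48 of 66 with a median of 1.88 RPKM. These are shares of 86.2% and 72.7%, beside 66.5% and a median of 2.56 RPKM over all protein-coding genes. Among the 58 receptors listed EGFR was highest, followed by the syndecan SDC1 (86.3 ± 2.85 RPKM), the Wnt receptor FZD6 (60.2 ± 2.4) and MET, the receptor of HGF (55.7 ± 1.7). The oncostatin M receptor OSMR came next (43.7 ± 0.756, crossed by RICTOR with 129% as many counts). The list did not hold CD44, which was higher at 1860 RPKM. KDR, a VEGF receptor of endothelium, was at the floor. Of the other ERBB receptors, ERBB3 had 11.9 ± 0.696 RPKM (crossed by a gene with 217% as many counts), ERBB2 9.28 ± 1.13 RPKM and ERBB4 0.584 ± 0.0458 RPKM.

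By RPKM of the canonical transcript NRG1 was the highest ligand of the list, with 196, 208 and 217 RPKM. Its lowest library was above the highest of the next, WNT5A (54.5 ± 2.37 RPKM). NRG1 was counted over 1216445 bases, introns included, against a transcript of 11983 bases, and its place with other lengths was not examined. TGFB2 (46.2 ± 0.285), the Notch ligand JAG1 (41.3 ± 1.5) and PDGFA (37 ± 1.85) followed. The ligands of EGFR itself were lower, with AREG at 5.09 ± 0.343, TGFA at 3.82 ± 0.198, HBEGF at 3.12 ± 0.244 and EGF at 0.503 ± 0.0663 RPKM, while EREG had 1 count in each library and EPGN 0, 0 and 1. HGF, the ligand of MET, was not expressed at 0.0265 RPKM, and FGF7, FGF10 and FGF19 were at the floor. PTPRZ1, the receptor phosphatase the study follows, had 23.7, 23.6 and 24.5 RPKM. Of its ligands, MDK, which encodes midkine, had 30, 26.8 and 24.6 RPKM and the pleiotrophin gene PTN had 0.378 ± 0.15 RPKM, which was not expressed by the threshold used. The ERBB, PTPRZ1 and HGF members were named for their roles, with their values known.

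**Figure D4:**
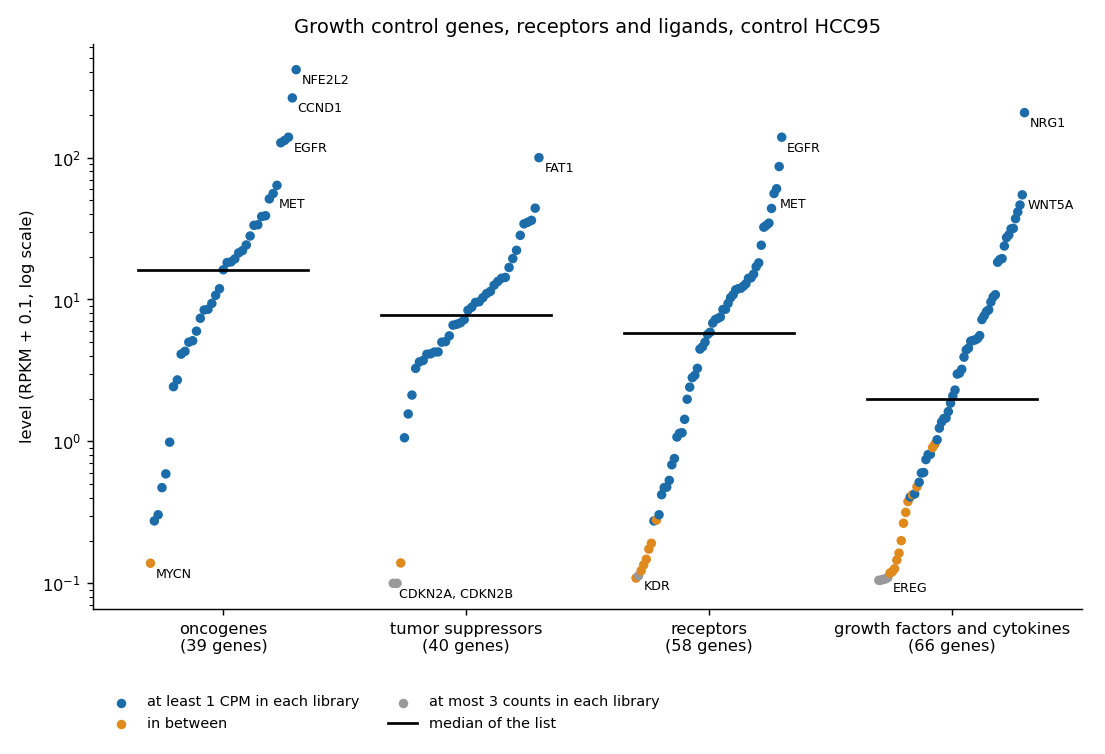
Mean level over 3 control libraries (RPKM + 0.1, log axis) of each gene in 4 lists, ordered by level within a list, with the median as a line and colors for genes expressed, in between and at the floor. Oncogenes and tumor suppressors were nearly all expressed except CDKN2A and CDKN2B at 0 counts, LRP1B and MYCN. By RPKM of the canonical transcript NRG1 stands above the other ligands of the list at 207 RPKM.

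The NRF2 program was high as a group, with 32 of 33 genes expressed (97%, beside 66.5% of all protein-coding genes) and a median of 134 RPKM against 2.56 RPKM. The antioxidant proteins PRDX1 (801 ± 14.4 RPKM) and TXN (756 ± 38), the ferritin heavy chain FTH1 (671 ± 13.4, crossed by BEST1 with 88.6% as many counts), thioredoxin reductase TXNRD1 (538 ± 9.24) and AKR1C3 (512 ± 26.7) led it. GCLC and GCLM, the subunits of the enzyme that limits glutathione synthesis, had 283 ± 1.38 and 134 ± 1.53 RPKM, and NQO1 had 126 ± 2.01 RPKM. KEAP1, the inhibitor of NRF2, had 16.7 ± 1.76 RPKM. HMOX1, which encodes heme oxygenase and is a further NRF2 target, was the exception, with 18, 17 and 30 counts and 0.614 ± 0.148 RPKM. GCLC, GCLM, NQO1 and KEAP1 were named for their roles, with their values known.

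All 22 proliferation genes were expressed, beside 66.5% of all protein-coding genes, with a median of 71.1 RPKM against 2.56 RPKM. PCNA of the replication fork (347 ± 12.4 RPKM), TOP2A (165 ± 3.46), CCNB1, which encodes cyclin B1 (123 ± 2.55), TYMS (100 ± 5.76, crossed by ENOSF1 with 132% as many counts) and MCM3 (94.9 ± 2.06) were highest, and MKI67 had 88.4, 86.2 and 88 RPKM.

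Several of the highest genes were neighbours. Among 18872 windows of 11 consecutive protein-coding genes, the window from CAT to LDLRAD3 on chromosome 11 (34438934 to 36232136, hg38) had the highest median level, 6.76 on the log2(RPKM + 0.1) scale against a median of 1.58 over all windows. It held 8 genes of the top 5% and summed to 17100 CPM, against a median of 330 CPM, and CD44 alone gave 10100 CPM of it. CAT, which encodes catalase (550 ± 0.895 RPKM), APIP (859 ± 33.7), PDHX (484 ± 3.66), TRIM44 (194 ± 8.9), LDLRAD3 (108 ± 4.33), FJX1 (66.6 ± 1.02) and EHF (61.4 ± 3.51) shared it. APIP and PDHX overlap, and PDHX had 113% as many counts as APIP. Between them ELF5 had 2, 2 and 4 counts, SLC1A2 0.221 RPKM and PAMR1 2.95 RPKM, so not all genes of the window were high. This window was chosen after the values were seen.

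The 3 control libraries were close to each other. Of the expressed protein-coding genes, 99.3%, 99.2% and 99.4% lay within 1.5-fold in the pairs 1 and 2, 1 and 3, and 2 and 3. The chi-square statistic per gene was 2.71, 4.02 and 1.95 in these pairs. Counting noise alone gives a value near 1 if each count is a separate fragment, and more if both reads of a pair were counted. Which of these holds is not known, so the statistic does not separate counting noise from other spread. No library was a repeat of another's counts. This does not show that they came from separate cultures. The common biological coefficient of variation from edgeR was 4.99%, and 3.23% without replicate 1. For 9191 genes with a mean of at least 10 CPM the median CV was 4.3% and 15 genes exceeded 20%. The most variable were EIF3CL (27.4, 3.54 and 3.34 CPM), the tubulin gene TUBA1A (18.6, 56.1 and 43.9 CPM), KRT6C (6.81, 9.5 and 16.8 CPM), PSMA8 (22.3, 8.92 and 13.4 CPM) and GPR89A (9.25, 7.55 and 15.3 CPM). EIF3CL, KRT6C and GPR89A have near-identical copies elsewhere, and TUBA1A and PSMA8 were crossed by genes with 1630% and 89.2% as many counts. Replicate 1 had the highest level of KRT5, KRT8, KRT13, KRT14, KRT15, KRT17 and KRT19. Relative to the mean the widest of these spreads was in KRT15, with 176, 137 and 130 RPKM and a CV of 16.8%. Other expressed keratins went the other way. KRT18 (196, 199 and 194 RPKM), KRT6B, KRT6C, KRT7, KRT40 and KRT86 were highest in replicate 2 or 3. The cause was not tested.

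Set beside the knockdowns, the control profile shared 93 of its 100 highest genes by RPKM with siKLF5b, 84 with siSOX2b, 83 with siGRHL2a and 81 with siTP63b. KRT5 was 8260 ± 661 CPM in the control and 9310 ± 224 CPM in siGRHL2a, 7570 ± 417 in siSOX2b, 5820 ± 472 in siTP63b and 5370 ± 567 CPM in siKLF5b. CD44 had means between 10100 and 12400 CPM in the 5 groups. In the names of the deposited columns, siNC1 and siKLF5b share one pattern and the other 3 groups another, so for siGRHL2a, siTP63b and siSOX2b the naming set and the knockdown cannot be told apart. No contrast was tested.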

How the data were processed

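Of the 15 RNA-seq libraries, 5 groups of 3 by their labels, the 3 siNC1 libraries were described. The authors selected polyadenylated RNA, aligned paired reads to hg38 with HISAT2 2.2.1, kept unique alignments and counted them with featureCounts 2.0.1 on Gencode 40, and the deposited values are raw counts per gene. The table also lists the counted length of each gene, its whole span. Strand use and the counting of reads or fragments are not given in the sources used here. Every column of counts matched a sample by name, with 0 left over. The 37 mitochondrial genes had 0 counts.

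CPM used library totals and RPKM the canonical transcript in Gencode 44, which held 61399 of 61544 gene identifiers. Levels are means ± SD of 3 libraries, with a pseudocount of 0.1 RPKM on the log2 scale. The spread was estimated with edgeR 4.0.16 in R 4.3.3, and figures were drawn in Python with matplotlib. No contrast was tested. The recovery of CPM levels and the edgeR spread were tested on simulated data, and the other steps were not.

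Genes named were the 20 highest by RPKM and 10 by counts, leaving out readthrough genes and the 190 genes that contain a smaller gene with at least 50% as many counts, the 5 markers, the expressed squamous factors and keratins, the 5 highest and best known silent members of each other list, and the 5 most variable genes of at least 10 CPM. A few genes that met this rule are not reported here. The members and the 21 lists (490 genes) were chosen with earlier results of these data known. Ranks and orders with other lengths, windows of 11 genes, stretches of 0 counts and a ranking without ribosomal protein genes were added after the data were seen. The alternatives were other scalings, lengths, thresholds and pseudocounts, genes without overlap, and each library left out.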

Additional observations from a re-analysis of the deposited data

How the results depend on the processing

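No paired analysis was possible because the results describe 1 group and come from no test between groups. Of 246 values under alternatives, 215 stayed within the spread between libraries or, for counts of genes, within 1.5 times, and 31 moved. Leaving out 1 library cannot shift a mean by the SD of the same 3 libraries. For the marker levels, the epithelial minus mesenchymal level and the shares of counts, these alternatives were therefore bound to stay. With all exons merged as the length, KRT5 had 2000, TP63 87.2, NFE2L2 68.0 and CCND1 234 RPKM, and with the counted length 1390, 2.45, 6.17 and 83.8 RPKM. With TMM factors TP63, NFE2L2 and CCND1 had 138, 435 and 275 RPKM, and with RLE size factors 139, 438 and 277 RPKM. The epithelial minus mesenchymal level was 3.54 with the counted length, 3.36 with a pseudocount of 1 RPKM and 3.12 over expressed members only.

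Without genes crossed by a gene with at least 50% as many counts, 8258 of the 13037 protein-coding genes left were expressed, with 15 of 15 squamous transcription factors, 2 of 10 other lung lineage factors, 5 of 21 cornified envelope genes, 1 of 4 alveolar markers and 0 of 7 leukocyte markers. At 1 RPKM in each library, 11396 of the 19337 protein-coding genes were expressed. Expressed members were 1 of the 15 other lung lineage factors, 6 of the 35 cornified envelope genes, 0 of the 8 neuroendocrine and 0 of the 8 fibroblast markers. They were 22 of 25 on the squamous transcription factor list, 33 of 39 oncogenes and 39 of 58 receptors. With 0 counts as the limit, 1388 protein-coding genes were silent. Over protein-coding genes only, the first 10 and 100 genes took 4.96% and 18.0% of the counts. Leaving out 1 library at a time gave a coefficient of variation from 3.23% to 6.37%. Depth limits what can be said of genes under about 3 counts in a library.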

Other observations

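Some further abundant genes outside the lists were picked after their values were seen. The actin gene ACTG1 had 1130 ± 8.49 RPKM and TMSB4X, which encodes an actin-binding thymosin, 1060 ± 63.1 RPKM. The mitochondrial chaperonin gene HSPE1 had 878 ± 27.6 RPKM (crossed by HSPD1 with 219% as many counts), and the heat shock protein genes HSP90AB1 and HSP90B1 had 812 ± 64.1 and 729 ± 11.2 RPKM. Among long non-coding RNAs with little overlap, NEAT1, the scaffold of paraspeckles, had 434 ± 23.8 CPM and NORAD 392 ± 14.4 CPM, close to MIR205HG at 435 ± 16 CPM. The ranges of NEAT1 and MIR205HG overlapped, so their order by CPM is not set, whereas by RPKM MIR205HG had 538 ± 19.8 and NEAT1 19.1 ± 1.05.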
